A study of Homo sapiens with 2 samples.

Results

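The genes of 10 enzymes of glycolysis were examined for contacts of the splicing factor SF3B1: GPI, PFKP, ALDOA, TPI1, GAPDH, PGK1, PGAM1, ENO1, PKM and LDHA. An interval of the deposited peak list was taken as theirs when the list gave the gene's NCBI number and the middle of the interval lay inside the gene's RefSeq span. This gave 9 intervals of the 1406 distinct intervals in the list (0.64%), in 4 of the 10 genes. They were mapped by HITS-CLIP, where ultraviolet light ties RNA to the proteins that touch it, an antibody recovers 1 protein with its RNA, and the RNA is sequenced as short tags. There was 1 group, SF3B1 HITS-CLIP, of 2 biological replicates in MDA-231-LM2 cells, which were derived from the breast cancer line MDA-MB-231 for their spread to the lung. The cells were grown in DMEM with glucose, glutamine and pyruvate, with no other treatment named. The extract protocol names SNRBP2 as the protein recovered, but the series title and the antibody name SF3B1, which was taken as the target. No control or input sample was used here, so no comparison between conditions could be made.

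The authors pooled the tags of both replicates before peaks were listed, so replicate error is unknown for every value below, as is the depth of either library. The height of an interval counts the pooled tags at its summit. The list also gives for each peak a height expected for its gene and a p-value, and these are the authors' own values, used here as a description. Heights in the whole list ran from 3 to 248 tags with a median of 7, and the median width was 43 nt. Positions are on hg38. As a check of the label, 3 of 6 markers of mesenchymal breast cancer cells held an interval (VIM, AXL and CCN1; 50%), as did 2 of 9 luminal markers (ERBB2 and CDH1; 22.2%) and 0 of 4 markers of blood and endothelium, beside 5.29% of all protein-coding genes. The highest interval had 31 tags in AXL, 18 in VIM, 17 in CCN1, 6 in ERBB2 and 3, the lowest height listed, in CDH1. A peak list gives no transcript level, so neither these counts nor these heights identify the cells.

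Glycolysis turns glucose into pyruvate in the cytosol, and tumour cells often run it fast and pass the pyruvate on to lactate. SF3B1 is a subunit of the U2 small nuclear ribonucleoprotein and contacts pre-mRNA around the branch point, upstream of the 3′ splice site. PKM is a textbook case of regulated splicing: a pair of mutually exclusive exons near the end of the gene gives either the M1 or the M2 form of pyruvate kinase, and proliferating cells mostly make M2. The binding proteins PTBP1, HNRNPA1 and HNRNPA2B1 favour M2 by repressing the M1 exon, and SRSF3 favours inclusion of the M2 exon.

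Most of the 9 intervals lay in 2 of the 10 genes. ENO1 and PKM, whose enzymes act one after the other to make phosphoenolpyruvate and then pyruvate, held 3 and 4 of the 9 intervals. PFKP, for the platelet-type phosphofructokinase of the committed step, and PGK1, for the phosphoglycerate kinase that makes ATP, held 1 each. The remaining 6 genes held none: GPI, ALDOA, TPI1, GAPDH, PGAM1 and LDHA. The share of members with an interval was 4 of 10 (40%), and among all 19987 protein-coding genes 1057 held an interval (5.29%). The 10 genes were chosen with results of these data known, so this count was given no test. Intervals above the median height of the list lay in 2 of the 10, PKM and ENO1, and in 2.43% of all protein-coding genes. Intervals with a listed p-value under 0.01 lay in 3 of the 10, these and PFKP, and in 4.52% of all protein-coding genes. The 9 heights ran from 5 to 19 tags with a median of 10, against a median of 7 for all intervals in protein-coding genes. Of the 9, 7 lay above the median height of the list, against 610 of 1316 (46.4%) in all protein-coding genes, where an interval inside more than 1 listed gene counts for each. All 7 lay in PKM and ENO1, whose listed expected heights were 0.24 and 0.42. In protein-coding genes with expected heights of 0.2 to 0.3 the median interval had 12 tags, and with 0.4 to 0.5 also 12. Beside such genes the heights in PKM and ENO1 were not unusual.

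**Figure D1:**
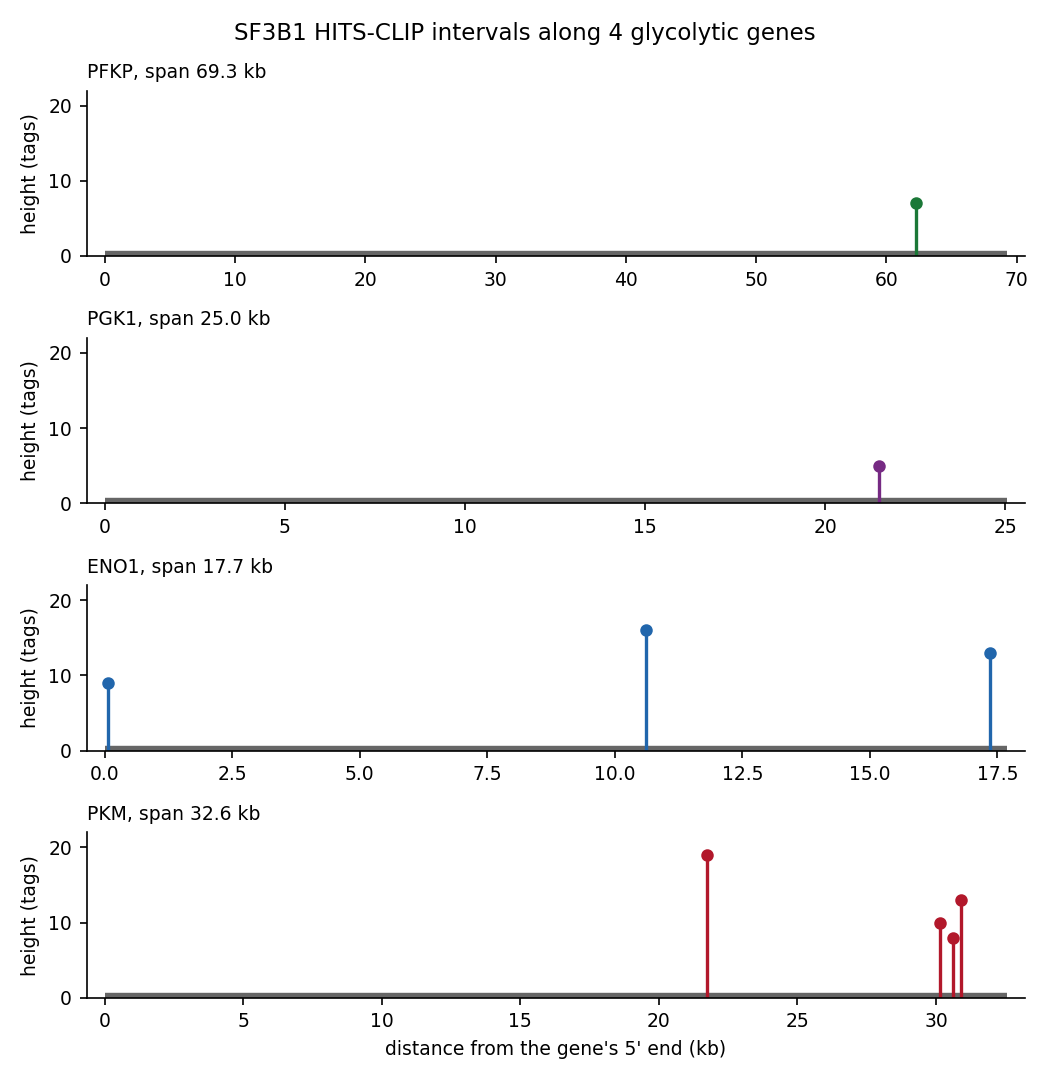
Each panel shows 1 gene, with the distance from its 5′ end in kb on the horizontal axis, the height of each interval in pooled tags on the vertical axis and the RefSeq span as a grey bar. PFKP and PGK1 hold 1 interval each, of 7 and 5 tags, ENO1 has 3 spread over its span, and PKM has 1 of 19 tags in mid-gene and 3 close together near its 3′ end.

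PKM, the gene of muscle-type pyruvate kinase, lies on chromosome 15, 72199029 to 72231591 (32.6 kb), on the minus strand. Its tallest interval, of 19 tags, covered 72209849 to 72209895, 21.7 kb from the 5′ end of the span. The next, of 10 tags, covered 72201405 to 72201448, and was followed by one of 8 tags at 72200974 to 72201016 and one of 13 tags at 72200664 to 72200708. In direction of transcription the tallest interval thus came first, at 66.7% of the span. The other 3 lay at 92.6%, 94% and 94.9% of the span. Their middles were 432 nt and 309 nt apart, and they ended 1.66 kb before the 3′ end of the gene, measured to the middle of the last. A stretch of 8400 nt without an interval separated them from the tallest. No position was set against the mutually exclusive exons, since no exon annotation of this build was used here. Whether the group of 3 touches either exon or the introns beside them was therefore not determined.

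Few protein-coding genes held as many intervals as PKM, or held them so close together. At least 4 intervals lay in 12 of 19987 genes (0.06%), which is 1.14% of the 1057 genes with an interval. At least 3 lay in 49 genes, 0.245% of all and 4.64% of those with an interval. Of these 49, 4 had 3 intervals whose middles fell within 1 kb, and PKM was the second in that order with 741 nt. ACTB, a cytoplasmic actin, came before it with 646 nt and HNRNPH1, an RNA-binding splicing regulator, after it with 748 nt, while the median of the 49 genes was 14939 nt. The group in PKM rests on its middle interval, of 8 tags, which had a listed p-value of 0.0185. With only intervals of a listed p-value under 0.01, it dropped out and PKM no longer had 3 so close together. The span of PKM was 32563 nt, that of ACTB 3454 nt and that of HNRNPH1 20607 nt. Among the other 7 genes with exactly 4 intervals, the nearest to PKM in height were RPL10, a ribosomal protein gene with a highest interval of 13 tags, and TEAD1, a transcription factor of the Hippo pathway with 25. POLE, the catalytic subunit of DNA polymerase epsilon, had 12, DST, a cytolinker, 9, and NOP56, a core protein of snoRNA particles, 33. In summed height over its intervals PKM had 50 tags, and 26 of the 1057 genes (2.46%) had as many or more.

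ENO1, the gene of alpha-enolase, lies on chromosome 1, 8861000 to 8878686 (17.7 kb), also on the minus strand. Its first interval in the direction of transcription, of 9 tags, covered 8878597 to 8878643. The second, of 16 tags, covered 8868056 to 8868098, and the last, of 13 tags, covered 8861314 to 8861357. Unlike the group in PKM, the 3 intervals were spread over the whole gene, at 0.4%, 60% and 98.1% of the span. The first began 44 nt into the transcript and ended at nucleotide 90, counted from 1 at the RefSeq start, and the last had its middle 335 nt before the 3′ end of the span. The summed height was 38 tags, and 47 of the 1057 genes (4.45%) had as many or more.

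The start of the ENO1 transcript is shown because it is the only place where an interval of these genes met a start window, the 250 bases before to 50 after a RefSeq start. Bases 21 to 50 of the transcript (RefSeq, GRCh38.p14, chr1:8878637-8878666, minus strand) are given 5′ to 3′, with the 7 bases covered by the interval in capitals. The rest of the 47 nt interval lies beyond the window.
ENO1: gcacggagatctcgccggctttaCGTTCAC
Such an overlap was seen for 1 of the 9 intervals, against 12 of 1316 (0.91%) in all protein-coding genes. The table does not hold a start for every gene, so the second count is a lower bound.

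PFKP and PGK1 each held a single low interval towards the 3′ end. In PFKP, on chromosome 10, 3067548 to 3136805 (69.3 kb, plus strand), an interval of 7 tags covered 3129799 to 3129841, at 89.9% of the span. In PGK1, on chromosome X, 78104248 to 78129295 (25 kb, plus strand), an interval of 5 tags covered 78125722 to 78125764, at 85.8%. Both heights were common in the list: 59.4% of the 1057 genes had a highest interval of at least 7 tags and 92.1% one of at least 5. The corresponding shares were 12% for the 16 tags of ENO1 and 8.61% for the 19 tags of PKM. PKM and ENO1 stood in the upper part of the list, and PFKP and PGK1 at its median or below.

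**Figure D2:**
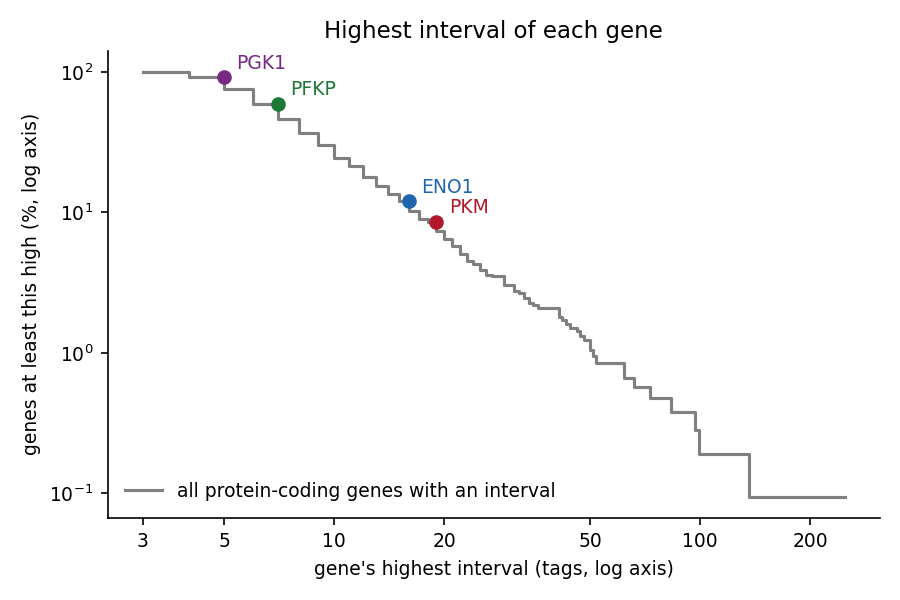
The horizontal axis gives the height of a gene's highest interval in tags and the vertical axis the percentage of the 1057 protein-coding genes with an interval whose highest is at least that tall, both on log axes. Coloured points mark PKM at 19 tags, ENO1 at 16, PFKP at 7 and PGK1 at 5.

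The intervals were similar in width, matched the strand of their gene and differed in their place along it. All 9 were 43 to 47 nt wide, beside a median of 43 nt in the whole list. They lay on the strand of their gene, as did all 1095 intervals in protein-coding genes with a listed start. Neither trait is particular to these 9. Of the 9, 4 lay in the last 10% of the span, 3 of them in PKM and 1 in ENO1, against 228 of 1316 (17.3%) in all protein-coding genes. The first 10% held 1 of the 9, in ENO1, against 71 of 1316 (5.4%). None of the 9 overlapped another RefSeq gene. The microRNA gene MIR6728, inside ENO1, was 1466 nt from the nearest interval, and the snoRNA gene SNORD142, inside PFKP, 4263 nt.

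The expected height listed for a gene also differed between the members. It was 0.42 tags for ENO1, 0.24 for PKM, 0.08 for PFKP and 0.03 for PGK1, against a median of 0.04 over the 1057 genes. An expected height as large or larger was listed for 53 of these genes (5.01%) in the case of ENO1 and for 100 (9.46%) in that of PKM. The sources used here do not say how the authors computed it. Relative to it, PGK1 and PFKP stood above PKM and ENO1. The interval of PGK1 was 167 times its expected height and that of PFKP 87.5 times. In PKM the ratios ran from 33.3 to 79.2 and in ENO1 from 21.4 to 38.1. The median ratio of the 9 intervals was 41.7, against 167 over the 1268 intervals in protein-coding genes that had an expected height above 0. The highest ratio of each member ran in the reverse order of the expected heights. Between expected heights of 0.01 and 0.05 no listed interval was below 4 tags, so none there could have a low ratio. The ratios therefore do not rank the genes.

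The lowest height that was listed rose with the expected height, which bears on what could be listed in each gene. Between expected heights of 0.4 and 0.5, the lowest interval of protein-coding genes was of 9 tags, the height of the interval at the start of ENO1. Between 0.2 and 0.3 it was of 7 tags, and the lowest in PKM had 8. Between 0.01 and 0.05 it was of 4 tags, and PGK1 had 5. Of the 9 intervals, 3 had a listed p-value of 1e-100, the lowest in the list: the second of ENO1 and the intervals of 19 and 13 tags in PKM. In all protein-coding genes 243 of 1316 (18.5%) had it. Another 3 had a listed p-value above 0.01, where the highest in the list was 0.0499. They were the interval at the start of ENO1 with 0.0372, that of PGK1 with 0.034 and that of 8 tags in PKM with 0.0185.

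**Figure D3:**
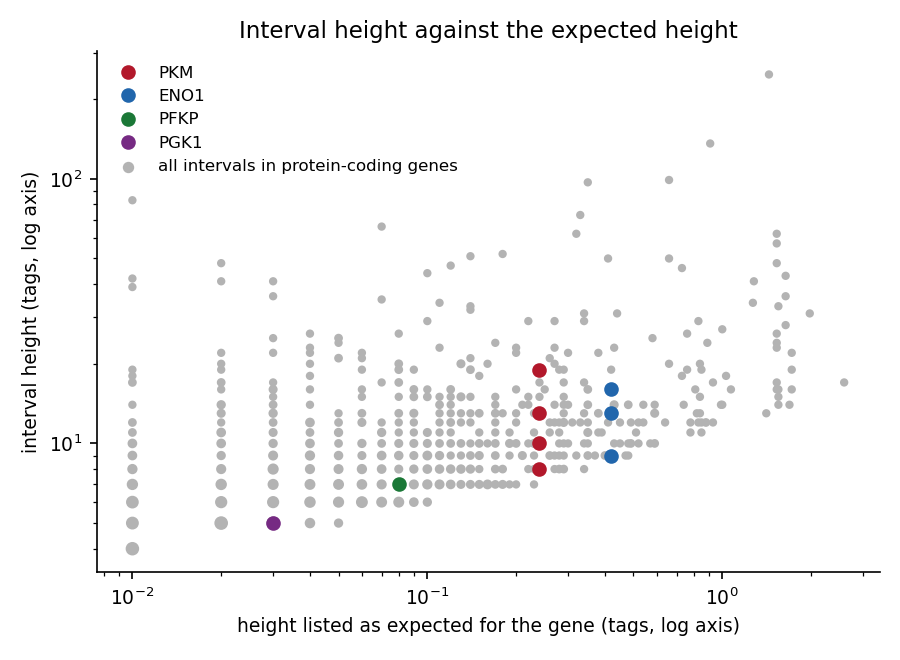
The expected height listed for the gene is on the horizontal axis and the height of the interval on the vertical axis, both in tags on log axes. Each coloured point is an interval of PKM, ENO1, PFKP or PGK1. Grey points each stand for all intervals in protein-coding genes with the same pair of values, and larger ones for more intervals. Intervals with an expected height of 0 are not shown. The lower edge of the points climbs to the right, and the interval of 9 tags in ENO1 lies on it.

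The 6 genes without an interval include genes known for abundant transcripts in growing cells, among them GAPDH, whose enzyme oxidises glyceraldehyde 3-phosphate, and LDHA, whose enzyme makes lactate. A gene missing from the list may still have had tags, since the list holds significant peaks only. Gene length moved with the result. With a limit of 15 kb, chosen after the spans of the members were seen, the 5 members of a shorter span, TPI1 (3529 nt), GAPDH (3855 nt), ALDOA (6142 nt), PGAM1 (7254 nt) and LDHA (13863 nt), held 0 intervals, and of the 5 longer ones 4 held at least 1. The exception was GPI, for the isomerase of the second step, with 42696 nt. Among all protein-coding genes 172 of 7579 shorter ones (2.27%) and 885 of 12408 longer ones (7.13%) held an interval. Of the 9 members of at most 50 kb, all but PFKP, 3 held an interval, against 3.79% of all protein-coding genes of such a span. The numbers of pseudogene copies also differed. RefSeq lists 65 pseudogenes named after GAPDH, 13 after PGAM1, 6 after LDHA, 5 after PKM, 4 each after ENO1 and TPI1, 2 each after ALDOA and PGK1, and 0 after GPI and PFKP. None of these 101 pseudogenes held an interval. The sources used here do not say whether tags that match several copies were kept. The part of span, copies and transcript level in the missing intervals was not tested.

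Other genes of glycolysis held single low intervals. Of 19 paralogs and enzymes of other steps, 3 (15.8%, beside 5.29% of all protein-coding genes) held 1 interval each: HK1, a hexokinase of the entry step, with 6 tags, PFKM, the muscle-type phosphofructokinase, with 6 and LDHB, the heart-type lactate dehydrogenase subunit, with 5. Of 12 regulators and transporters, 1 did (8.33%), PFKFB3, whose enzyme makes the activator fructose 2,6-bisphosphate, with 5 tags. Among neighbouring pathways, the pentose phosphate pathway had 0 of 7 genes and the tricarboxylic acid cycle with its entry 0 of 21. The heights in HK1, PFKM, LDHB and PFKFB3 were below the list's median of 7 tags, like the 5 tags of PGK1, while PFKP had 7 and PKM and ENO1 had 8 to 19. Relative to the expected height the order was the other way. The ratio was 600 in HK1, 500 in LDHB, 250 in PFKFB3 and 200 in PFKM, against 21.4 to 79.2 in PKM and ENO1. The expected heights behind these large ratios were 0.01 in HK1 and LDHB, 0.02 in PFKFB3 and 0.03 in PFKM. Since the list gives expected heights in steps of 0.01, such ratios are rough, and their order is not a ranking.

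The proteins that choose between the exons of PKM were themselves encoded by genes with intervals in 3 of 4 cases, beside 5.29% of all protein-coding genes. HNRNPA2B1 held intervals of 27 and 14 tags, HNRNPA1 of 17 and 12, and SRSF3 of 11, while PTBP1 held none. Their expected heights, 1 for HNRNPA2B1, 0.93 for HNRNPA1 and 0.28 for SRSF3, were above the 0.24 of PKM. The list holds 4 genes and was chosen with results of these data known, so nothing is read from its share.

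**Figure D4:**
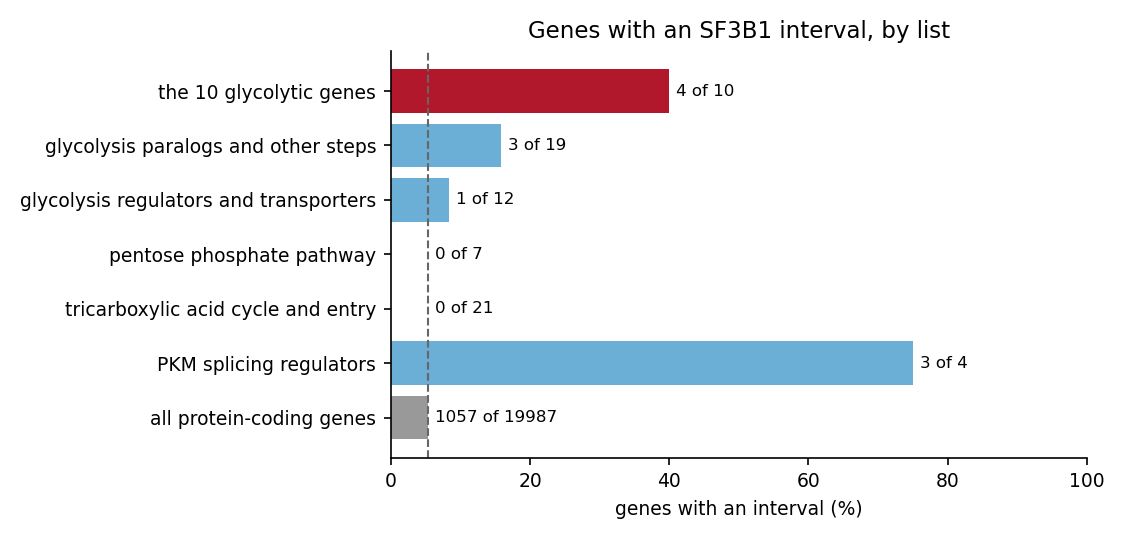
Bars give the percentage of genes in each list that held an interval, with the counts beside them, and the dashed line marks the share of all protein-coding genes. The 10 glycolytic genes stand at 4 of 10 and the regulators of PKM splicing at 3 of 4. The pentose phosphate pathway stands at 0 of 7 and the tricarboxylic acid cycle at 0 of 21.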

How the data were processed

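SF3B1 HITS-CLIP was done in 2 replicates of MDA-231-LM2 cells. The authors deposited 1 peak list with heights as whole-number counts of tags at the top of each peak, without normalization. Per the file's name, it was made from pooled, unique tags and kept significant peaks, bounded at a set part of their height; the sources used here do not say what unique means. Reads were handled with cutadapt 2.3 and BWA 0.7.17 on hg38, per the submitters' processing notes, and the sources used here do not name the peak caller. The depth of each library was unknown.

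Rows of equal chromosome, start, end and strand were counted as 1 interval. Genes, spans and starts came from RefSeq GRCh38.p14, and all 10 members matched. The background was all protein-coding genes on chromosomes with a row in the list. Place along a gene was taken from the interval's middle and the gene's strand, or the interval's strand where no start was listed; they were equal for all 1095 intervals with a listed start. No exon annotation or genome was used. No test was run. The members, lists and descriptions were chosen with earlier results of these data known. Named genes were all members, up to 4 genes of each wider list by height, and at most 5 genes with as many intervals as PKM; ACTB, HNRNPH1 and the marker genes were named after their values were seen. Gene assignment was tested on simulated data. Python 3.11.15, numpy 2.4.6, pandas 2.3.3 and matplotlib 3.10.9 were used.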

Additional observations from a re-analysis of the deposited data

How the results depend on the processing

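No replicate could be left out and no paired analysis was possible because the deposited list pools both libraries of 1 group. The counts of members with an interval, of their intervals and of intervals in PKM were the same with rows as they stand, with gene numbers as listed, with any overlap of 1 nt and with intervals within 50 nt merged. Restricted to intervals above the median height, 2 of the 10 genes, PKM and ENO1, held one, against a background of 2.43%, and the 9 intervals became 7 with all 4 of PKM. With a listed p-value under 0.01, 3 genes, 6 intervals and 3 in PKM were left. The interval of 8 tags in PKM, the middle one of its close group, was then lost. The background share was 3.79% for genes of at most 50 kb and 7.13% for genes of at least 15 kb; the limit of 15 kb was chosen after seeing the data. The median height of 10 tags was 11.5 over the highest interval of each gene, and the mean was 11.1. The planned count of PKM intervals in introns was not run, for want of an exon annotation used here. With heights of 5 to 19 tags and no replicate values, the precision of a height was not known.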
